A study of Mus musculus with 5 samples.

Results

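Cytochrome P450 genes encode haem-containing monooxygenases, and 72 of the 46983 genes in the count table of a mouse Kupffer cell study were taken as members of this group. The rule took symbols made of Cyp, a family number, a subfamily letter and a gene number, with at least 10 reads summed over all 5 libraries. It matched 94 symbols, of which 14 had 0 counts and 8 had 1 to 9, and the members fell into 30 subfamilies. Just inside the limit lay Cyp2t4 with 10 and Cyp2d34 with 13 counts, and just outside lay Cyp3a57 with 7 and Cyp4f40 with 4. The pattern leaves out pseudogenes and symbols such as Cyp51 and Cyp4a12a. The summed counts that chose the members do not use the genotype, but the gene family was picked with earlier results of these data known.

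The study sequenced poly-A RNA of Kupffer cells, the macrophages of the liver sinusoids, of the genotype ID3 +/- (heterozygous, 3 libraries, replicates 1 to 3) and ID3 -/- (knockout, 2 libraries, replicates 2 and 3). Id3 is an inhibitor without a DNA-binding region that pairs with E proteins, a class of transcription factors. Every control library therefore comes from cells that already lack 1 copy of Id3, and wild-type cells were not analysed here. The labels name no strain, sex, age or treatment, nor the deletion's design. All 5 columns of the count table carry the mark 3w, which no label explains and which may or may not be an age. They say that tissue was broken up mechanically through a filter, but not how Kupffer cells were then purified or whether the libraries came from separate animals. The p-values below therefore measure the spread between these libraries, which may be technical.

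The libraries held 74823374 to 80944135 counts assigned to genes. Id3 stood at 229, 221 and 256 CPM (gene counts scaled to a common library size, normalised with the trimmed mean of M-values, TMM) in the heterozygous and at 1.01 and 1.42 CPM in the knockout libraries. The Kupffer markers Clec4f, Vsig4 and Cd5l were at or above 2777 CPM in every library, and 0 of the 7 listed Kupffer genes passed the test between genotypes. Their levels were not equal, however. Both knockout libraries lay below all heterozygous ones in 4 of the 7 and above them in 2, against 26.9% and 24.6% of all genes tested. Hepatocyte transcripts were also present: the 12 genes of the hepatocyte list summed to 22603, 24981 and 21291 CPM in the heterozygous and to 4915 and 11299 CPM in the knockout libraries. Of these 12 genes 8 were lower in the knockout libraries and 0 higher (over all genes tested, 10.0% were called lower). Alb stood at 10906, 11794 and 9238 against 1718 and 4292 CPM. Apoa1, Apoa2, Ttr and Serpina1a did not pass. Of the 6 tested genes of the neutrophil list, 4 were higher in the knockout libraries and 0 lower (over all genes tested, 6.41% were called higher). The list summed to 4.69 to 5.2 CPM in the heterozygous libraries and to 209 CPM in knockout replicate 2 and 30.3 CPM in knockout replicate 3. None of the defining markers of any listed cell type was at 0 in all 5 libraries. Of the endothelial, stellate, cholangiocyte, monocyte, B cell and T and NK cell lists (5 or 6 genes each), 2, 1, 0, 0, 0 and 0 genes were lower, and 1 monocyte gene was higher. Lists this short cannot tell 1 call from the shares of 10.0% lower and 6.41% higher over all genes tested.

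In hepatocytes, Cyp1, Cyp2 and Cyp3 enzymes sit in the endoplasmic reticulum and oxidise drugs, steroids and other compounds, Cyp4 enzymes oxidise fatty acids and eicosanoids, and Cyp7, Cyp8, Cyp27 and Cyp39 enzymes act on sterols on the way to bile acids. Most take their electrons from P450 oxidoreductase, and the mitochondrial members take them from adrenodoxin. Macrophages and other myeloid cells are known for a smaller set, among them the sterol 27-hydroxylase Cyp27a1 and the leukotriene-oxidising Cyp4f18. In bulk RNA such as this, fewer cells of a type and less RNA per cell cannot be told apart.

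Of the 72 members, 64 had enough counts to be tested and 8 had not. Both knockout libraries were under the count minimum of the filter for 2 of the 64, Cyp2c38 and Cyp2c39, and neither passed the test. Lower levels in the knockout libraries were called for 34 members and higher levels for 3, with 27 not passing (edgeR quasi-likelihood test, adjusted p under 0.05 over the 16436 genes tested). Over all genes tested, 16.4% were called, 10.0% as lower and 6.41% as higher. The median log2 fold change (knockout minus heterozygous) was -1.65 over the tested members and -0.02 over all genes tested. Both knockout libraries lay below all heterozygous libraries in 46 of the 64 members and above them in 6, against 26.9% and 24.6% of all genes tested. Cyp2c38 and Cyp2c39, which reached the filter through heterozygous libraries alone, are among the 46. By lists of substrates written with earlier results known, 21 of 31 genes placed under drugs and other foreign compounds were lower. So were 1 of 6 under sterols and bile acids, and 8 of 14 under fatty acids, among which the 3 higher genes also fall. Cyp2c70 and the steroid hydroxylase Cyp2a4 were counted under drugs, so these lists do not divide the members cleanly by reaction. None of 4 vitamin D and retinoid genes passed.

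These counts of calls depended on single libraries. Without heterozygous replicate 1 they fell to 6 lower and 0 higher, and without heterozygous replicate 2 to 3 lower and 0 higher. Without heterozygous replicate 3, 23 were lower and 1 higher (Cyp4f16). Without knockout replicate 2, 25 were lower and 1 higher (Cyp2b13), which was not among the 3, and without knockout replicate 3, 36 were lower and 3 higher. Cyp8b1, Cyp2c40 and Cyp2c44 alone passed whichever library was removed. None of the 37 called members changed direction in any of these 5 fits. The calls over all genes fell as well, from 1644 lower and 1054 higher with all 5 libraries. Without heterozygous replicate 1 there were 344 lower and 119 higher, and without heterozygous replicate 2 there were 248 and 87. The fall was thus not particular to the P450 genes.

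**Figure D1:**
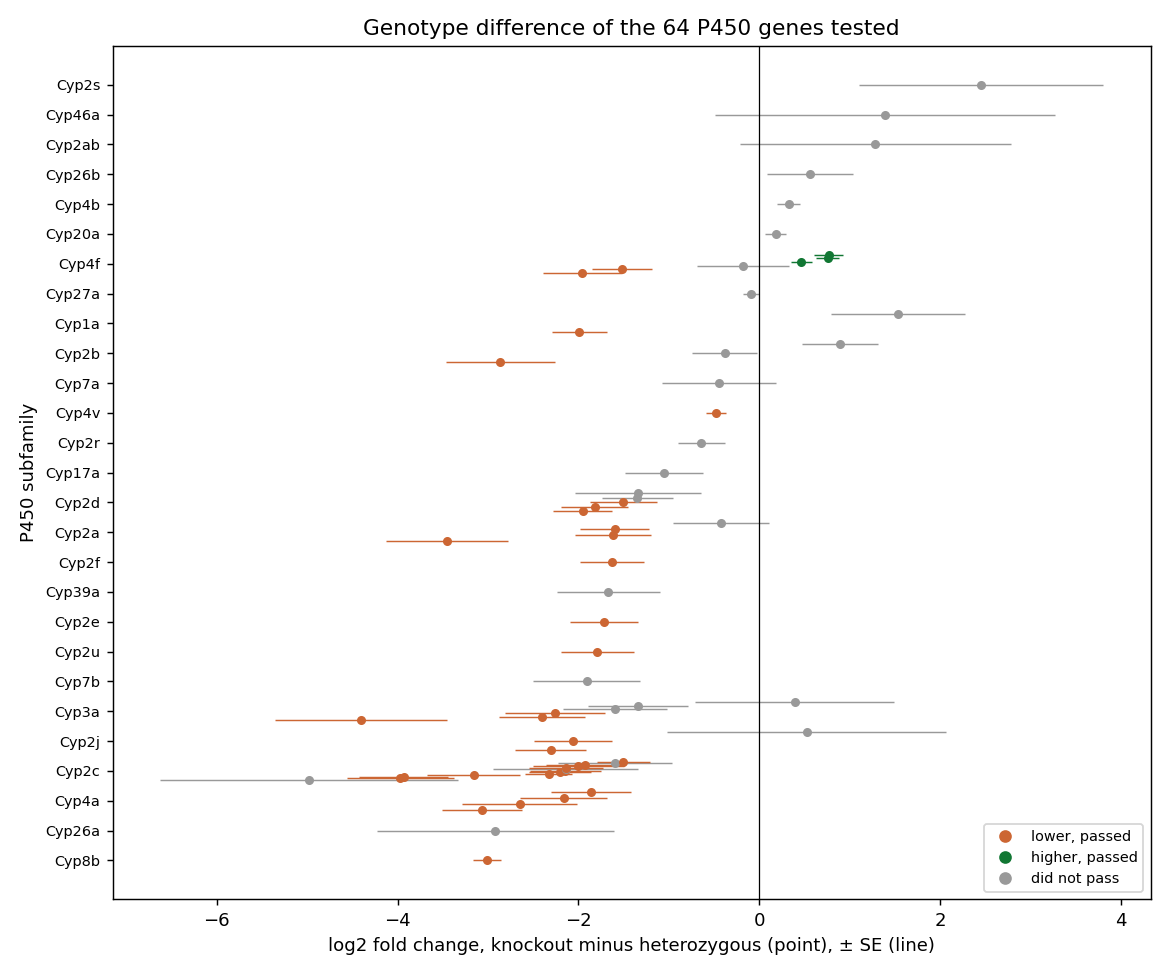
Log2 fold change (knockout minus heterozygous, x axis) of the 64 tested P450 genes, grouped by subfamily (y axis, ordered by median), with lines for ± SE and colours for the edgeR call. The Cyp2c and Cyp4a genes lie left of 0, from -4.98 to -1.50, and Cyp4f genes lie on both sides. The value of -4.98 is that of Cyp2c38, which rests on 0 and 1 counts in the knockout libraries.

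All members together took 0.393%, 0.389% and 0.321% of the gene counts of the heterozygous libraries and 0.0990% and 0.180% of those of knockout replicates 2 and 3. The makeup of this total also differed. Cyp27a1, Cyp20a1, Cyp4b1, Cyp4v3, Cyp4f13, Cyp4f16 and Cyp4f18, set apart here after their values were seen, held 12.6%, 12.8% and 14.5% of the P450 counts in the heterozygous libraries. In the knockout libraries these 7 genes held 51.1% and 29.2%. Per kilobase of transcript, the order of the mean levels in the heterozygous libraries began with Cyp2e1 (457 CPM per kb), Cyp3a11 (129), Cyp27a1 (106) and Cyp2c29 (105). In the knockout libraries it began with Cyp2e1 (139), Cyp27a1 (99.4), Cyp4f13 (31.6) and Cyp4f18 (30.8). Cyp3a11, Cyp27a1 and Cyp2c29 overlapped in the heterozygous libraries. In the knockout libraries Cyp2e1 (78.0 and 200.1 CPM per kb) overlapped Cyp27a1 (94.1 and 104.6), and Cyp4f13 overlapped Cyp4f18. These neighbours thus did not differ beyond their spread.

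**Figure D2:**
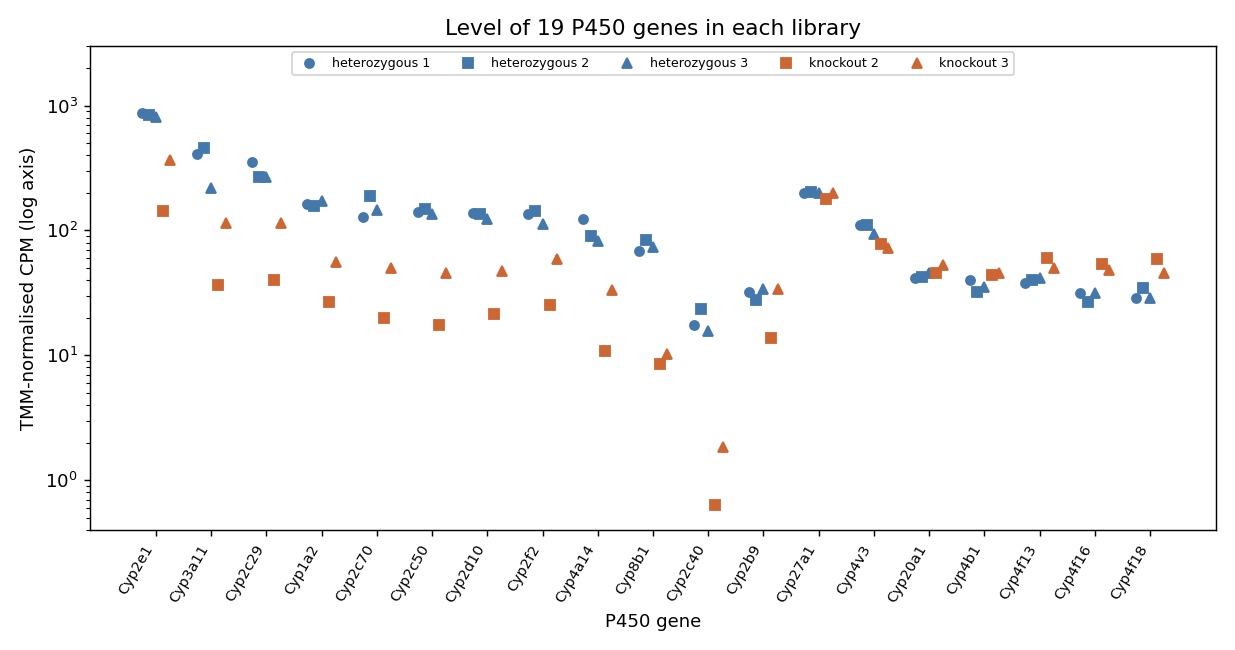
TMM-normalised CPM (log axis) of 19 P450 genes in each of the 5 libraries, blue for heterozygous and orange for knockout. From Cyp2e1 to Cyp2c40 the orange points lie below the blue ones and knockout replicate 2 is lowest, while Cyp27a1 to Cyp4f18 stay between 26.8 and 203 CPM in all 5 libraries.

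Knockout replicate 2 had the lowest level of most P450 genes that were called lower. Knockout replicate 3 was above it in 30 of these 34 genes, with a median ratio of 2.49, and in the hepatocyte list the same ratio was 2.30. To set the P450 genes beside other hepatocyte transcripts, their counts were also expressed per 1000 counts of the hepatocyte list in the same library. On that scale 26 of the 64 tested members had both knockout libraries below all heterozygous ones, 15 had them above and 23 overlapped. Cyp2c38 and Cyp2c39 are again among those below. The median of the knockout mean over the heterozygous mean was 91.6% for the 64. Of the 34 genes chosen here as called lower, 24 had both knockout libraries below all heterozygous ones, 9 overlapped and 1, Cyp4v3, lay above. For these 34, chosen for their lower level, the median was 64.5%. The list's own members spread widely, from a log2 fold change of -2.96 for Fga to -0.08 for Apoa2, so a ratio to it depends on which hepatocyte genes it holds. Beyond these ratios, the part of hepatocyte RNA in the P450 differences was not tested.

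The Cyp2c subfamily, whose enzymes hydroxylate drugs and epoxidise arachidonic acid, had the most called members. All 13 of its members were tested and 10 were lower, against 10.0% of all genes tested. In all 13 both knockout libraries lay below the heterozygous ones, against 26.9% of all genes tested. Cyp2c38 and Cyp2c39 reached the count filter through heterozygous libraries alone, so their place below adds little. The counts of the 13 members summed to 804, 808 and 712 CPM in the heterozygous and to 102 and 267 CPM in the knockout libraries. Cyp2c29, the highest of them per kilobase, stood at 352, 270 and 267 CPM against 40.4 and 115 CPM. The fit gave -1.93 ± 0.44 (log2 scale, SE, n = 3 and 2, edgeR adjusted p = 0.0346).

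Cyp2c40 and Cyp2c69, which are known as more abundant in female than in male mouse liver, differed more. Cyp2c40 stood at 17.5, 23.5 and 15.8 CPM in the heterozygous and 0.637 and 1.83 CPM in the knockout libraries, and Cyp2c69 at 21.8, 27.9 and 18.5 against 0.584 and 2.31 CPM. The log2 fold changes were -3.93 ± 0.49 (edgeR adjusted p = 0.00977) and -3.97 ± 0.59 (adjusted p = 0.0141). Relative to the hepatocyte list, both were still low, at 17.8% and 16.4% of the heterozygous mean. The close copy Cyp2c67 changed by -3.16 ± 0.52, from 4.22, 5.3 and 4.82 to 0.265 and 0.801 CPM. Cyp2c44, which shares no 50-base stretch with another gene, stood at 21.1, 23.6 and 18.3 against 3.21 and 5.14 CPM (-2.33 ± 0.26, edgeR adjusted p = 0.00781). The further called members Cyp2c37, Cyp2c50, Cyp2c54, Cyp2c68 and Cyp2c70 ranged from -2.20 to -1.50. Cyp2c38, Cyp2c39 and Cyp2c55 were at or under 4.08 CPM in every library and did not pass.

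Reads with several alignments were not counted, so close copies are measured only through the stretches in which they differ. Of the 50-base stretches in the longest annotated transcript of Cyp2c40, 72.1% also occur in another gene, mostly Cyp2c69. For Cyp2c69, Cyp2c67 and Cyp2c68 the shares were 54.8%, 52.8% and 43.3%, with Cyp2c40 as the closest gene for each. Over 20% of the stretches were shared in 22 of the 72 members and 0% in 19. The values of the 22 are thus uncertain, those of these Cyp2c genes among them. Others of the 22 were Cyp2d10 (40.5%), Cyp4a10 (30.5%), Cyp2a4 (38.8%), Cyp2a5 (40.8%) and Cyp2b13 (27.3%). Cyp2c44, Cyp2c70, Cyp3a11 and Cyp8b1 were among the 19. Stretches of 50 bases were used because no source states the read length.

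Cyp2e1, which oxidises ethanol and paracetamol and is known from hepatocytes around the central vein, had the highest level per kilobase in all libraries but knockout replicate 2. It stood at 871, 843 and 802 CPM in the heterozygous and at 143 and 367 CPM in the knockout libraries, which is -1.72 ± 0.38 on the log2 scale (edgeR adjusted p = 0.032). Cyp1a2, the caffeine-oxidising target of the aryl hydrocarbon receptor, stood at 162, 158 and 173 against 26.9 and 55.9 CPM (-1.99 ± 0.30, edgeR adjusted p = 0.0147). Its inducible relative Cyp1a1 went the other way without passing, at 0.11, 0.507 and 0.178 against 0.69 and 0.853 CPM (1.54 ± 0.74, adjusted p = 0.208). The groups of Cyp1a1 did not overlap, but its values rest on 9 to 66 counts per library. Cyp2f2, known from hepatocytes around the portal vein, changed by -1.63 ± 0.35, from 135, 143 and 113 to 25.3 and 59.1 CPM. Of the 5 tested Cyp2d genes, 3 were lower (Cyp2d10, Cyp2d9 and Cyp2d22, from -1.95 to -1.50), against 10.0% of all genes tested. Cyp2d26 stood at 110, 95.2 and 86.4 against 20.8 and 55.4 CPM, without overlap, but did not pass (-1.35 ± 0.39, edgeR adjusted p = 0.066), and Cyp2d40 was at or under 3.74 CPM and did not pass either. The 3 further Cyp2d members had too few counts to be tested.

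The Cyp2a and Cyp2b genes did not move alike. Cyp2a4, a steroid hydroxylase, stood at 24.6, 24.2 and 16 CPM in the heterozygous and at 0.65 and 3.28 CPM in the knockout libraries (-3.45 ± 0.67, edgeR adjusted p = 0.024). Cyp2a5, the gene with which it shares most stretches, changed by -1.62 ± 0.42 and Cyp2a12 by -1.60 ± 0.38. Cyp2a22 overlapped between the groups, at 6.65 to 10.3 against 2.61 and 9.61 CPM. Cyp2b10, the standard target of the xenobiotic receptor CAR, stood at 17.8, 9.82 and 10.4 against 0.756 and 2.73 CPM (-2.86 ± 0.60, edgeR adjusted p = 0.029). Its neighbours Cyp2b9 and Cyp2b13 did not pass: Cyp2b9 stood at 32.4, 27.5 and 33.8 against 13.8 and 34.1 CPM. Cyp2b13 stood at 6.22, 4.74 and 4.67 against 5.2 and 14.2 CPM (0.89 ± 0.42, adjusted p = 0.195), and it passed as higher without knockout replicate 2. Relative to the hepatocyte list, Cyp2b9 and Cyp2b13 were above all heterozygous libraries in both knockout libraries, at 212% and 507% of the heterozygous mean, while Cyp2b10 was at 35.5%.

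Cyp3a genes, whose enzymes oxidise a broad range of drugs and steroids, gave 3 lower calls among 6, against 10.0% of all genes tested. Cyp3a11, the main mouse Cyp3a enzyme of the liver, stood at 409, 455 and 217 CPM in the heterozygous and at 36.8 and 114 CPM in the knockout libraries (-2.26 ± 0.55, edgeR adjusted p = 0.041). Heterozygous replicate 3 was thus apart from its group in this gene, though still above both knockout libraries. Cyp3a13 changed by -2.40 ± 0.47 and Cyp3a44 by -4.40 ± 0.95. Cyp3a44 stood at 1.13, 3.71 and 1.85 against 0.0265 and 0.181 CPM, the last 2 from 2 and 14 counts. Cyp3a25 and Cyp3a59 (-1.59 and -1.34) lay below the heterozygous range without passing, and Cyp3a16 was at or under 0.349 CPM.

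All 4 tested Cyp4a genes were lower, against 10.0% of all genes tested. These encode fatty acid omega-hydroxylases, known as targets of the receptor PPAR alpha. Cyp4a14 stood at 124, 90.6 and 82.5 CPM against 10.9 and 33.4 CPM (-2.16 ± 0.48, edgeR adjusted p = 0.0333), and Cyp4a10 at 96.8, 74 and 51.8 against 5.35 and 12.4 CPM (-3.07 ± 0.45, adjusted p = 0.0133). Cyp4a31 and Cyp4a32 changed by -2.65 ± 0.63 and -1.86 ± 0.45. Summed, the subfamily stood in the knockout libraries at 17.9% of its heterozygous mean, and at 49.0% relative to the hepatocyte list. Among the fatty acid epoxygenases, Cyp2j5 (-2.31 ± 0.39) and Cyp2j6 (-2.06 ± 0.43) were lower and Cyp2j9 was at or under 0.711 CPM. Cyp2u1, which also hydroxylates long-chain fatty acids, stood at 1.46, 1.6 and 1.52 against 0.517 and 0.362 CPM (-1.79 ± 0.40), and unlike most called genes it was lower in knockout replicate 3 than in replicate 2.

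Cyp8b1, the sterol 12-hydroxylase that makes cholic acid, had the smallest p of all P450 genes. It stood at 68.7, 84 and 73.6 CPM in the heterozygous and at 8.45 and 10.2 CPM in the knockout libraries, which is -3.01 ± 0.16 on the log2 scale (edgeR adjusted p = 0.00196). The knockout libraries were close to each other here although they differed 2.30-fold in the hepatocyte list. Per 1000 hepatocyte-list counts Cyp8b1 stood at 3.04, 3.36 and 3.46 against 1.72 and 0.906. Cyp7a1, the rate-limiting enzyme of bile acid synthesis, was low throughout and overlapped, at 2.65, 1.53 and 1.41 against 0.557 and 2.18 CPM (-0.45 ± 0.63, adjusted p = 0.685). Cyp7b1 (-1.91 ± 0.59, adjusted p = 0.0757) and Cyp39a1 (-1.67 ± 0.57, adjusted p = 0.0975), both oxysterol 7-hydroxylases, lay below the heterozygous range without passing. Cyp46a1, the cholesterol 24-hydroxylase of brain, gave 0 to 37 counts per library and did not pass.

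Cyp27a1 did not follow Cyp8b1. The gene of the mitochondrial sterol 27-hydroxylase stood at 199, 203 and 200 CPM in the heterozygous and at 178 and 198 CPM in the knockout libraries (-0.09 ± 0.09, edgeR adjusted p = 0.522). In knockout replicate 2 it had the highest level per kilobase of all members, at 94.1 against 78.0 CPM per kb for Cyp2e1. Cyp20a1, a P450 of unassigned substrate, stood at 41.9, 42.2 and 46 against 45.3 and 53.1 CPM and did not pass. Cyp4b1, a fatty acid and xenobiotic hydroxylase, stood at 40.4, 32.3 and 35.4 against 44.4 and 45.8 CPM (0.32 ± 0.13, adjusted p = 0.134), so the groups did not overlap but the difference did not pass. Cyp4v3, a fatty acid hydroxylase of many tissues, was the called gene with the smallest fall: 110, 112 and 93.5 against 77.8 and 73 CPM (-0.48 ± 0.11, edgeR adjusted p = 0.0384). Its call was lost under upper-quartile scaling and without a count filter, and leaving out a library kept it in 1 of 5 cases.

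Cyp4f genes, which encode omega-hydroxylases of leukotrienes and long-chain fatty acids, were the only subfamily with calls in both directions. Cyp4f18 rose from 28.6, 34.9 and 28.5 CPM to 59.2 and 45.5 CPM (0.77 ± 0.16, edgeR adjusted p = 0.0282). Cyp4f16 rose from 31.8, 26.8 and 31.8 to 53.8 and 48 CPM (0.76 ± 0.13, adjusted p = 0.0178). Cyp4f13 rose from 38.2, 40.1 and 41.9 to 60.5 and 50.3 CPM (0.47 ± 0.12, adjusted p = 0.0464). In these 3 genes knockout replicate 2 was above knockout replicate 3 and both were above all heterozygous libraries. The neutrophil list was also highest in knockout replicate 2, and its part in the Cyp4f values was not tested. Without knockout replicate 2 the 3 log2 fold changes were 0.57, 0.67 and 0.33, and none of the 3 passed.

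The other 2 called genes of the subfamily were lower: Cyp4f14 stood at 43.5, 44.2 and 40.9 against 5.57 and 16.5 CPM (-1.96 ± 0.43, edgeR adjusted p = 0.0332) and Cyp4f15 at 26, 23 and 19.2 against 5.16 and 10.7 CPM (-1.52 ± 0.33, adjusted p = 0.0316). In the RefSeq gene order (GRCm38.p6), Cyp4f15 and Cyp4f14 follow each other between Cyp4f16 and Cyp4f13 on the same chromosome, so genes that were lower stood among members that were higher. Cyp4f18 lies on another chromosome. Cyp4f17 overlapped, at 0.577 to 1.23 CPM, and Cyp4f37 and Cyp4f39 had too few counts to be tested. Sharing of stretches between the Cyp4f genes was low, at 2.45% to 5.81% for Cyp4f13, Cyp4f14, Cyp4f15 and Cyp4f18, and 26.5% for Cyp4f16, whose closest gene is Cyp4f37. On the sum of all 8 members the subfamily stood at 106.5% of its heterozygous mean, with 3 genes higher and 2 lower within it.

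**Figure D3:**
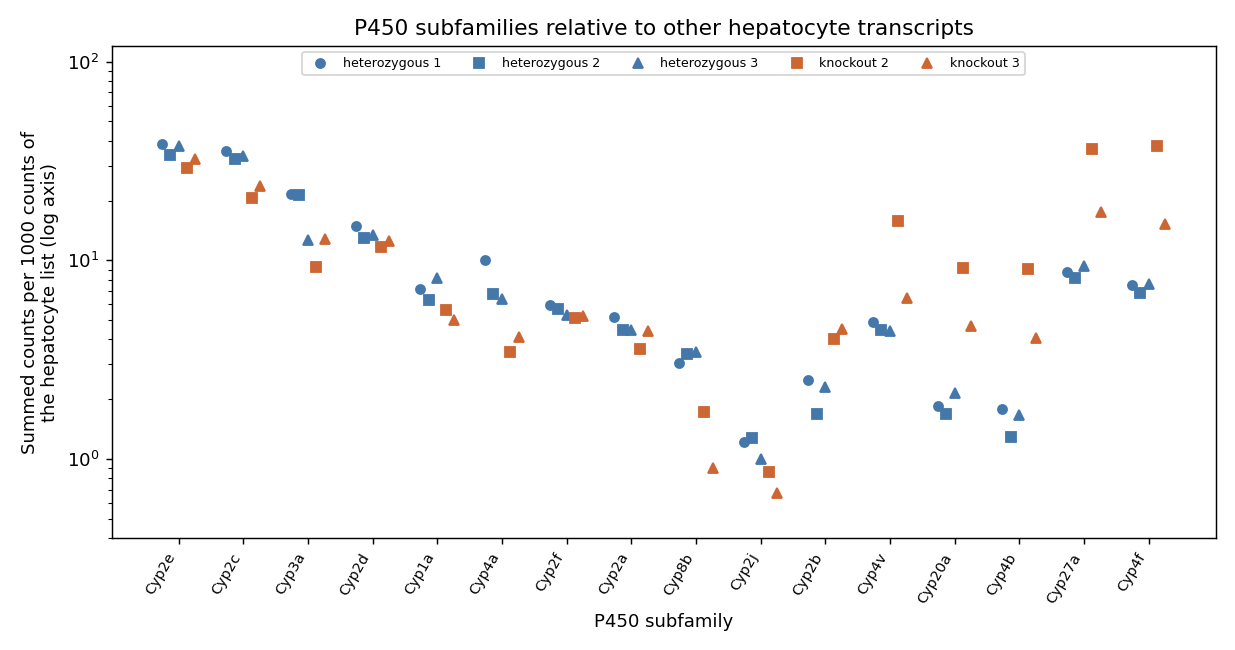
Summed counts of 16 P450 subfamilies per 1000 counts of the hepatocyte list in the same library (log axis), blue for heterozygous and orange for knockout. The Cyp4f, Cyp27a, Cyp4b, Cyp20a and Cyp4v sums lie higher in both knockout libraries, whereas Cyp2c, Cyp4a and Cyp8b lie lower in both.

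The upstream sequences of genes from these opposite groups are shown because neighbouring Cyp4f genes differ in direction and close Cyp2c copies share theirs. They were chosen after the values were seen. RefSeq (GRCm38.p6) gave the sequence around a start site for 57 of the 72 members, and the 200 bases before the start are printed 5′ to 3′ on the strand of the gene. Capitals mark TATAAA, the letters of the TATA box, and CAAAGTCCA, a core bound by the liver receptor HNF4, on either strand. The stretches are Cyp8b1 (chr9:121916306-121916505, minus strand), Cyp2e1 (chr7:140763619-140763818, plus strand), Cyp2c40 (chr19:39812815-39813014, minus strand), Cyp2c69 (chr19:39886770-39886969, minus strand), Cyp4f15 (chr17:32685459-32685658, plus strand), Cyp4f16 (chr17:32536357-32536556, plus strand) and Cyp4f18 (chr8:72009627-72009826, minus strand).
Cyp8b1: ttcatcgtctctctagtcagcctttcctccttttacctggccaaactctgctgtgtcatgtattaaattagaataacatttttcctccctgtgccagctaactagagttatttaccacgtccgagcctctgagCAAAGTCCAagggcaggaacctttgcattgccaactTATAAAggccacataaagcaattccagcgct
Cyp2e1: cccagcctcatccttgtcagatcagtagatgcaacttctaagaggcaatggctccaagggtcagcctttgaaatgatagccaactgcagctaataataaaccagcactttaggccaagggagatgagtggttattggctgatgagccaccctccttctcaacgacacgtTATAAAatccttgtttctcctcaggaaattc
Cyp2c40: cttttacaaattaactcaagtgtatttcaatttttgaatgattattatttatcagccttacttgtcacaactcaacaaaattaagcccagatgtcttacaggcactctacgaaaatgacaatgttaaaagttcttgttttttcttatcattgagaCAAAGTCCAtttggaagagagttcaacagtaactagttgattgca
Cyp2c69: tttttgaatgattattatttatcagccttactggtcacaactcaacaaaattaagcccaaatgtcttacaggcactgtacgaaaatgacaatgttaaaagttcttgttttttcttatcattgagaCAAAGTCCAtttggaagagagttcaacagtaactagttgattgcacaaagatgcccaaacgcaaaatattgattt
Cyp4f15: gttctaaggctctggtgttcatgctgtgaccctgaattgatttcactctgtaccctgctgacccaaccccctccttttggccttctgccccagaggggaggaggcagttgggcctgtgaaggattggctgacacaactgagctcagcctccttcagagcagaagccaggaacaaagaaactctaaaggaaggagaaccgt
Cyp4f16: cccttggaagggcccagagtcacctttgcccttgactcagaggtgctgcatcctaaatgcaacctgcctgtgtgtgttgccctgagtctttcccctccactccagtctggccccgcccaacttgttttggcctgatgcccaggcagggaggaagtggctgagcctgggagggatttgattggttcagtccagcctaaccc
Cyp4f18: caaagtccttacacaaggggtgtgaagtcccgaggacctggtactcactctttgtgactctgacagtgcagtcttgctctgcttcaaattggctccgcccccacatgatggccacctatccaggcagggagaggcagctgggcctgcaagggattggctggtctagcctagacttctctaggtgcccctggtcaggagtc

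The Cyp2c40 and Cyp2c69 stretches were identical at 167 of 170 bases (98.2%) when shifted by 30 bases, and both hold the HNF4 core. Cyp4f16 matched Cyp4f15 at 49.3% and Cyp4f18 at 39.1% of the bases at their best shift without gaps. The full window of 300 bases ran from 250 before to 50 after the start, on both strands. In it TATAAA was found in 17 of the 27 lower members with a sequence. It was in 9 of 22 members that did not pass and in 0 of the 3 higher members, against 14.2% of all 27025 promoters. These matches lay anywhere in the window, such as at -128 in Cyp2j5, so a match is not always a TATA box. In Cyp2c40 the match lay outside the printed bases. Close copies such as Cyp2a4 and Cyp2a5 were counted singly. CAAAGTCCA was found in 7 of the 27, 1 of the 22 and 0 of the 3, against 0.477% of all promoters. The 7 were Cyp8b1, Cyp3a11, Cyp2c70 and the close copies Cyp2c40, Cyp2c67, Cyp2c68 and Cyp2c69, so they are not separate sequences. The E-box CANNTG, the letters that E proteins bind, was in 23 of the 27, 15 of the 22 and 3 of the 3 members, against 72.1% of all promoters. Its forms CAGCTG and CAGGTG, which are included in CANNTG, were each in 5 of the 27 lower and 5 of the 22 members that did not pass. Of the 3 higher members, 2 held CAGCTG and 1 held CAGGTG, against 16.1% and 5413 of all promoters. Other searched letters included AGGTCA, in 8 of the 27, 6 of the 22 and 0 of the 3 (16.0% of all), and TTGCNNAA, in 8, 5 and 0 (10.8% of all). GAGGAA was in 5 of the 27, 1 of the 22 and 2 of the 3 (28.3% of all). A match of letters is a description of the sequence and shows no binding.

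P450 genes of hormones and vitamins were low. Cyp17a1, a steroid 17-hydroxylase, stood at 3.24, 3.02 and 4.78 against 1.11 and 2.43 CPM (-1.05 ± 0.43, edgeR adjusted p = 0.147). Cyp2r1, a vitamin D 25-hydroxylase, stood at 4.59, 5.26 and 6.91 against 3.61 and 3.55 CPM and did not pass (-0.64 ± 0.26, adjusted p = 0.142). The retinoic acid hydroxylases Cyp26a1 and Cyp26b1 overlapped between the groups. Cyp26a1 reached 4.75 CPM in heterozygous replicate 3 and stayed at or under 0.722 CPM in the other libraries, while Cyp26b1 ran from 2.07 to 7.96 CPM. Cyp2s1 and Cyp2ab1 were at or under 1.49 CPM and did not pass. The members too low to test were Cyp1b1, found in heterozygous replicate 2 alone (40 counts), Cyp2d11, Cyp2d12, Cyp2d34, Cyp2g1, Cyp2t4, Cyp4f37 and Cyp4f39.

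Genes that serve the P450 enzymes were described from lists, beside shares of 10.0% lower and 6.41% higher over all genes tested. Among 8 electron partners, 0 were higher and 2 lower, with a median log2 fold change of 0.09. Por, the oxidoreductase that supplies the microsomal enzymes, stood at 222, 209 and 218 against 248 and 226 CPM and did not pass (edgeR adjusted p = 0.339). The lower genes were Cyb5b, a cytochrome b5 of the outer mitochondrial membrane (-0.72 ± 0.12), and Pgrmc1, a haem-binding partner (-0.89 ± 0.19). Of 9 haem synthesis genes 3 were lower and 0 higher (median -0.15). Alas1, the first enzyme of the pathway, went from 187, 149 and 159 to 101.2 and 119.9 CPM (-0.58 ± 0.14, adjusted p = 0.039).

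Of 20 transcription factors and receptors known to control P450 genes, 8 were lower and 1 higher, with a median of -0.98. Over all genes tested, 10.0% were called lower and 6.41% higher. Among the lower factors were the hepatocyte factors Hnf4a (-1.88 ± 0.28) and Foxa2, the nuclear receptors Ppara (-2.25 ± 0.33), Nr1i2, Nr1h4 and Nr0b2, and the aryl hydrocarbon receptor Ahr (-1.35 ± 0.22). Hnf4a stood at 47.7, 49.2 and 35.7 against 8.73 and 15.2 CPM. Nr1i3, the gene of CAR, was at or under 4.26 CPM and did not pass. Rxra and Nr1h3 had the highest levels of the list, overlapped between the groups and did not pass either. Rxra stood at 810, 797 and 863 against 945 and 861 CPM, and Nr1h3 at 811, 777 and 905 against 755 and 907 CPM. Cebpb, which macrophages also express, rose from 446, 460 and 528 to 1132 and 780 CPM (1.00 ± 0.17, edgeR adjusted p = 0.0178). Of 5 tested targets of Ahr outside the P450 genes 1 was lower, Ugt1a6b, from 3.86, 5.04 and 3.93 to 0.411 and 0.349 CPM.

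Genes that mark hepatocytes near the portal vein were lower in 9 of 10 cases (median -1.53), against 10.0% of all genes tested. Pck1 was among the 9, at 309, 302 and 306 against 71.7 and 92.3 CPM. Of 7 tested genes known from hepatocytes near the central vein 2 were lower and 1 higher (median -0.81), and Glul (-0.06 ± 0.10), which other cells also express, did not pass. Cyp2e1 and Cyp1a2 from the central side and Cyp2f2 from the portal side all fell, by 1.72, 1.99 and 1.63 on the log2 scale.

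Several mouse P450 genes differ between male and female liver, and the labels give no sex. Xist, the RNA of the inactive X chromosome, was at or under 0.053 CPM in every library, and the Y-linked Eif2s3y stood at 8.61, 15.3 and 13.1 against 8.18 and 4.57 CPM. All 5 libraries thus held Y-linked transcripts and next to no Xist, and 0 of the 4 Y-linked genes passed (median -1.02). Of 8 members known as higher in female liver 4 were lower (Cyp2a4, Cyp2c40, Cyp2c69 and Cyp3a44) and 4 did not pass, namely Cyp2b9, Cyp2b13, Cyp3a16 and Cyp39a1. Over all genes tested, 10.0% were called lower. Cyp2d9, known as higher in male liver, was lower as well, at 48.2, 57.2 and 43 against 8.3 and 19.7 CPM (-1.82 ± 0.37, edgeR adjusted p = 0.0264). Cyp4a12a, also known as higher in male liver and outside the symbol rule, had 182, 209 and 110 counts in the heterozygous and 0 in both knockout libraries, which allow up to 0.0398 and 0.0388 CPM (edgeR adjusted p = 0.00726). Genes of both kinds were thus called lower.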

How the data were processed

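Poly-A RNA was amplified with a SMART-seq kit per the labels' protocols, and the authors deposited raw read counts per gene. The submitters' processing notes name HTSeq 0.5.4, DESeq 1.18.0, R 3.1.2 and the build mm9. No source used here gives the aligner, annotation release or strand. Entries that name no gene were left out. They took 47%, 47.5% and 48.6% of the reads of heterozygous replicates 1 to 3. For knockout replicates 2 and 3 the shares were 40.0% and 42.8%. Reads of several alignments were the most frequent of these entries, at 36.2%, 37.8% and 39.4% of all reads against 31.3% and 32.8%. The knockout libraries were thus lower in both shares, and the effect of this on genes with close copies was not tested.

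Knockout and heterozygous libraries were compared over the whole table with the quasi-likelihood test of edgeR 4.0.16 under R 4.3.3, after filterByExpr and TMM, with Benjamini-Hochberg adjustment over 16436 genes. The common biological coefficient of variation was 0.339, on 3 residual degrees of freedom. SE is the log2 fold change divided by the square root of F. Sums are given without a test. Alternatives were DESeq2 1.42.0, limma-voom (limma 3.58.1), other scalings and filters, a replicate block and leaving out each library. The scripts were tested on simulated data. Transcript lengths and 50-base stretches came from GENCODE M21, which matched 72 of 72 members by gene ID. The members and gene lists were chosen with earlier results of these data known. Members described singly were those passing the test, the one with most counts in each subfamily and the 12 with the highest mean CPM, and others were described after their values were seen. In other lists some were chosen by smallest p or highest level and others after their values were seen. Not every gene with a high level in those lists is described.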

Additional observations from a re-analysis of the deposited data

How the results depend on the processing

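With 3 against 2 libraries amplified from little RNA, low genes and small changes are measured poorly. Under DESeq2, limma-voom, 3 other scalings and 2 other count filters, 31 to 40 P450 genes were lower and 2 or 3 higher. With a minimum absolute log2 fold change of 1, 33 were lower and 0 higher. Leaving out 1 library gave 3 to 36 lower and 0 to 3 higher. With the replicate number as a block 0 were lower and 0 higher, and over all genes 0 were higher and 1 lower, while 40 members had an unadjusted p under 0.05. With so few libraries this block leaves hardly any residual degrees of freedom, so the loss of calls cannot show a replicate effect. The replicate numbers are shared by 2 pairs of libraries, whose deviations from the group means correlated at -0.0256 and -0.0618. These libraries were thus not taken as pairs. Of the named genes, 3 changed direction, all without knockout replicate 2 and none of them called: Cyp2b9 (0.13, against -1.16 without knockout replicate 3), Cyp7a1 (0.22 against -1.73) and Cyp46a1 (-5.87 against 2.40). With CPM on library size, the knockout sum as a percent of the heterozygous mean moved by less than its spread for all members together and for Cyp2a, Cyp2b, Cyp2c, Cyp2d, Cyp2j, Cyp3a, Cyp4a and Cyp4f. Single libraries moved by more in some sums, and for Cyp27a the groups then overlapped. Per 1000 hepatocyte-list counts the knockout sums were 113% of the heterozygous mean for all members, 85.2% for Cyp2a, 197.8% for Cyp2b, 65.7% for Cyp2c, 87.9% for Cyp2d, 65.7% for Cyp2j, 59.5% for Cyp3a, 49.0% for Cyp4a and 361% for Cyp4f. A count minimum of 1 or 100 in the rule gave 80 or 59 members.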
